A study of Mus musculus with 104 samples.

Results

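The genes described here were the target of no siRNA used, but carried in their 3′-UTR a full match to the seed of the Ttr siRNA D4 and were strongly lowered by it. Uhmk1, Rnft1, Bcl2l2, Hsd17b6 and Ifi204 are 5 of the 55416 genes counted, and they were chosen by their measured decrease with D4 at 10 nM. The rule took genes with a full seed match, an adjusted p under 0.05 for D4 at 10 nM against mock, and all 4 D4 libraries below all 8 mock libraries, ranked by log2 fold change. Of 131 seed-match genes lowered at that dose, 91 met both conditions. Ttr itself, the intended target, came first with a log2 fold change of −8.76 and was left out, and the 5 genes followed at ranks 2 to 6. The last gene inside was Bcl2l2 with a log2 fold change of −1.56, and the next outside were Dmd with −1.54, Rpgrip1l with −1.48 and Slc25a40 with −1.47. The values of D4 at 10 nM are therefore a description of how the genes were picked, and no test was made on them.

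Total RNA was sequenced from commercial primary mouse hepatocytes (PMH), the parenchymal cells of the liver, 24 h after lipid transfection in small wells. All siRNAs carried GalNAc, a sugar ligand for which hepatocytes have a receptor, and each was given at 0.1, 1, 10 and 50 nM with 4 libraries per dose, beside 8 mock libraries without siRNA. D4 is the parent siRNA against Ttr, D5 has the same sequence with GNA-G at guide position 6, and D6 has GNA-isoG there. GNA, glycol nucleic acid, is an acyclic nucleotide that weakens base pairing with RNA, and GNA-isoG carries isoguanine, an isomer of guanine. The other siRNAs have another seed and are directed against Hao1: the parent D1, D2 with GNA-C at guide position 5, and D3, where GNA-isoC takes that position. The labels do not say whether the 4 libraries of a group came from separate cultures or animals, so that p-values measure the spread between these libraries, which may be technical.

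Each of the 96 siRNA and 8 mock libraries held between 3409963 and 6160626 counts (median 4983570). Levels are given as read counts scaled to the library total (CPM) with TMM factors, and 1 read was worth between 0.162 and 0.293 CPM. The targets matched the labels. Ttr had a mean of 658 CPM in mock libraries and was at 0.15% to 0.63% of it with D4 to D6, other than 3.04% with D5 at 0.1 nM, where 1 library had 335 counts. Hao1 was at 2.38% to 41.1% of its mock mean with D1 to D3. All 12 hepatocyte markers had a mean of at least 1 CPM in mock libraries, from 4.85 CPM for Cps1 to 13277 CPM for Alb. The same held for 5 of 6 markers of cholangiocytes, the cells of the bile ducts, with Krt19 at 113 CPM. In bulk RNA, fewer cells of a type and less RNA per cell cannot be told apart.

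An siRNA guide is loaded into Argonaute, which uses the bases near its 5′ end, the seed, to search for transcripts, as a microRNA does. A 3′-UTR that pairs with the seed alone can bring about loss of the transcript without slicing, and hepatocytes given an siRNA can in this way lose transcripts that were not its target. Destabilizing the pairing of a single seed base is a known way to reduce this effect while the fully paired target is still cleaved.

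The full match, called mer8, reads CTCTATAA in the transcript: the complement of guide positions 2 to 8 and an A opposite position 1. The shorter matches are mer7m8, CTCTATA, and mer7A1, TCTATAA, both contained in mer8 and counted here only where they stand on their own. Only the transcript strand was searched. Of 20901 genes with an annotated 3′-UTR, 634 (3.03%) had a mer8 match, and 20 of these had more than 1. The site of each gene is shown because its match is what the genes have in common. It is written 5′ to 3′ on the transcript strand with the match in capitals, from GRCm39.
Uhmk1: gagctaacacaCTCTATAAccatttcttcc
Rnft1: actgtattatgCTCTATAAtatgactagta
Bcl2l2: aaaagaaaaagCTCTATAAatataaatata
Hsd17b6: atctggtctcaCTCTATAAccctggctggc
Ifi204: tcatttgttgtCTCTATAActtctataact

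In GRCm39 the Uhmk1 window is chr1:170026693-170026722 on the minus strand, the Rnft1 window chr11:86387313-86387342 on the plus strand, the Bcl2l2 window chr14:55125543-55125572 on the plus strand, the Hsd17b6 window chr10:127826953-127826982 on the minus strand and the Ifi204 window chr1:173574920-173574949 on the minus strand. All 5 sites lay in the last exon. The match began at base 861 of the 6583-base 3′-UTR of Uhmk1, at base 543 of 3070 in Rnft1, at base 2564 of 3561 in Bcl2l2, at base 146 of 315 in Hsd17b6 and at base 228 of 307 in Ifi204. The 3′-UTRs thus ran from well below to well above the median of 3038 bases for genes with a mer8 match. The A and U content of the 30 bases on each side of the match was 41.7% for Hsd17b6, 55% for Uhmk1, 75% for Rnft1, 78.3% for Ifi204 and 81.7% for Bcl2l2.

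Shorter matches were present beside the mer8 match in 3 of the 5 genes. Rnft1 had a mer7m8 match at base 1352 of its 3′-UTR, Ifi204 had a mer7A1 match at base 238, which lies in the printed window, and Bcl2l2 had a mer7m8 match in its coding sequence. Beyond the seed, at guide positions 9 to 16, with the guide taken as the complement of the Ttr site, the window of Uhmk1 paired at 1 of 8 positions, Bcl2l2 at 2, Rnft1 and Ifi204 at 3 each and Hsd17b6 at 5. None of the 5 had a mer8, mer7m8 or mer7A1 match to the guide of D1 to D3, and 0 of 1738 mature mouse microRNAs in RefSeq shared the seed of D4.

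**Figure D1:**
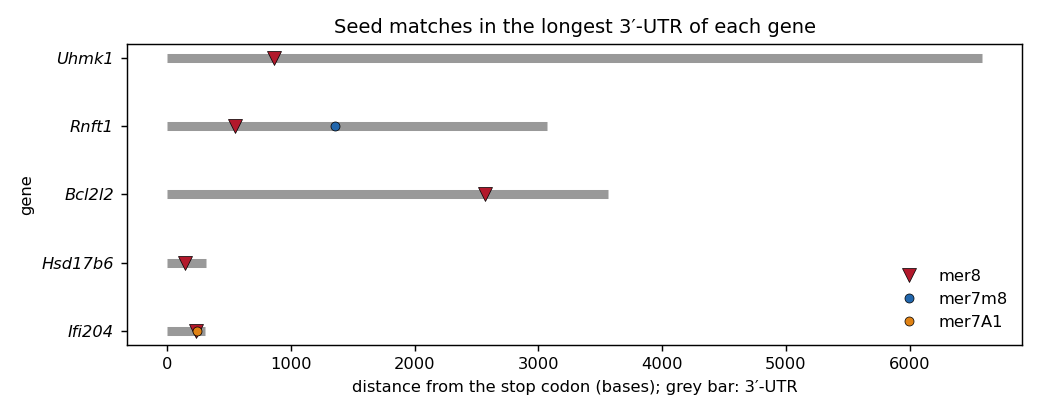
The horizontal axis gives the position in the 3′-UTR, in bases from its start, for each of the 5 genes, with marks for mer8, mer7m8 and mer7A1 matches to the D4 guide. The mer8 match sits at base 146 of 315 in Hsd17b6 and at base 861 of 6583 in Uhmk1.

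Annotated neighbours touch the counts of 3 of the genes. Bcl2l2 overlaps Gm20521 on the same strand, and Gm20521 had 0 counts in every library, so the split of reads between them is uncertain. Rnft1 overlaps Rps6kb1 on the opposite strand, which had a mean of 66.5 CPM in mock libraries and 61.5 CPM with D4 at 50 nM. Uhmk1 overlaps 4930500M09Rik on the opposite strand, which had at most 2 counts in any library. The library kit keeps the strand, but the sources used here do not say whether reads were counted by strand. Ifi204 has close paralogs, and the count of uniquely aligned reads may miss part of its transcripts.

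D4 lowered none of the 5 genes at 0.1 nM, and it lowered Uhmk1, Rnft1 and Bcl2l2 at 1 and at 50 nM, by edgeR's quasi-likelihood test against mock with Benjamini-Hochberg adjustment over all genes tested (adjusted p under 0.05). Over all genes tested, the share called lower was 0.00886% at 0.1 nM, 1.08% at 1 nM and 17.9% at 50 nM. At 10 nM, the dose of the rule, 14.4% of all genes were lower. At 0.1 nM, 1 member had an unadjusted p under 0.05 and DESeq2 called 0. The median log2 fold change of Uhmk1, Rnft1 and Bcl2l2 was −0.01, −0.46, −1.80 and −2.14 at the 4 doses in rising order, beside a median between 0.00 and 0.01 over all genes. Ifi204 and Hsd17b6 had few counts, and at high doses of D4 and D6 they passed the filter on low counts only through the group in which they were higher. In these comparisons fewer than 4 libraries of the siRNA reached the minimum of about 2 CPM, between 2 and 3 libraries for Ifi204 and 0 for Hsd17b6. They are therefore not in the counts for these doses, and their values are given separately. Hsd17b6 passed only through the mock libraries in other comparisons too. These were D4, D6, D1 and D3 at 0.1 and 1 nM, D5 at 1 nM and D2 at 0.1, 1 and 50 nM. There 2 or 3 libraries of the siRNA reached the minimum. The gene was called in none of them, with or without the filter, and is counted as not called. A p-value for such a comparison is of the fit that kept all genes with at least 1 count. Checks by omitted library or replicate block used the main filter, and some of these comparisons are given without a p-value. The mock libraries are shared by all comparisons with mock, including the one that chose the genes.

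D5 lowered 1 of the 5 genes, Bcl2l2, at 10 and at 50 nM and none at 0.1 and 1 nM. Over all genes tested, 0%, 0.0266%, 3.54% and 1.97% were lower with D5 at 0.1, 1, 10 and 50 nM. No member had an unadjusted p under 0.05 with D5 at 0.1 or 1 nM, and DESeq2 called 0 there. D6 lowered none at 0.1 nM, Uhmk1 and Bcl2l2 at 1 nM, and Uhmk1, Rnft1 and Bcl2l2 at both 10 and 50 nM, where the shares over all genes were 0.0443%, 1.28%, 13.9% and 16.5% in the same order. With D6 at 0.1 nM, 1 member had an unadjusted p under 0.05 and DESeq2 called 0. The median log2 fold change of these 3 genes at 50 nM was 0.05 with D5 and −1.33 with D6, beside 0.00 and 0.01 over all genes.

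**Figure D2:**
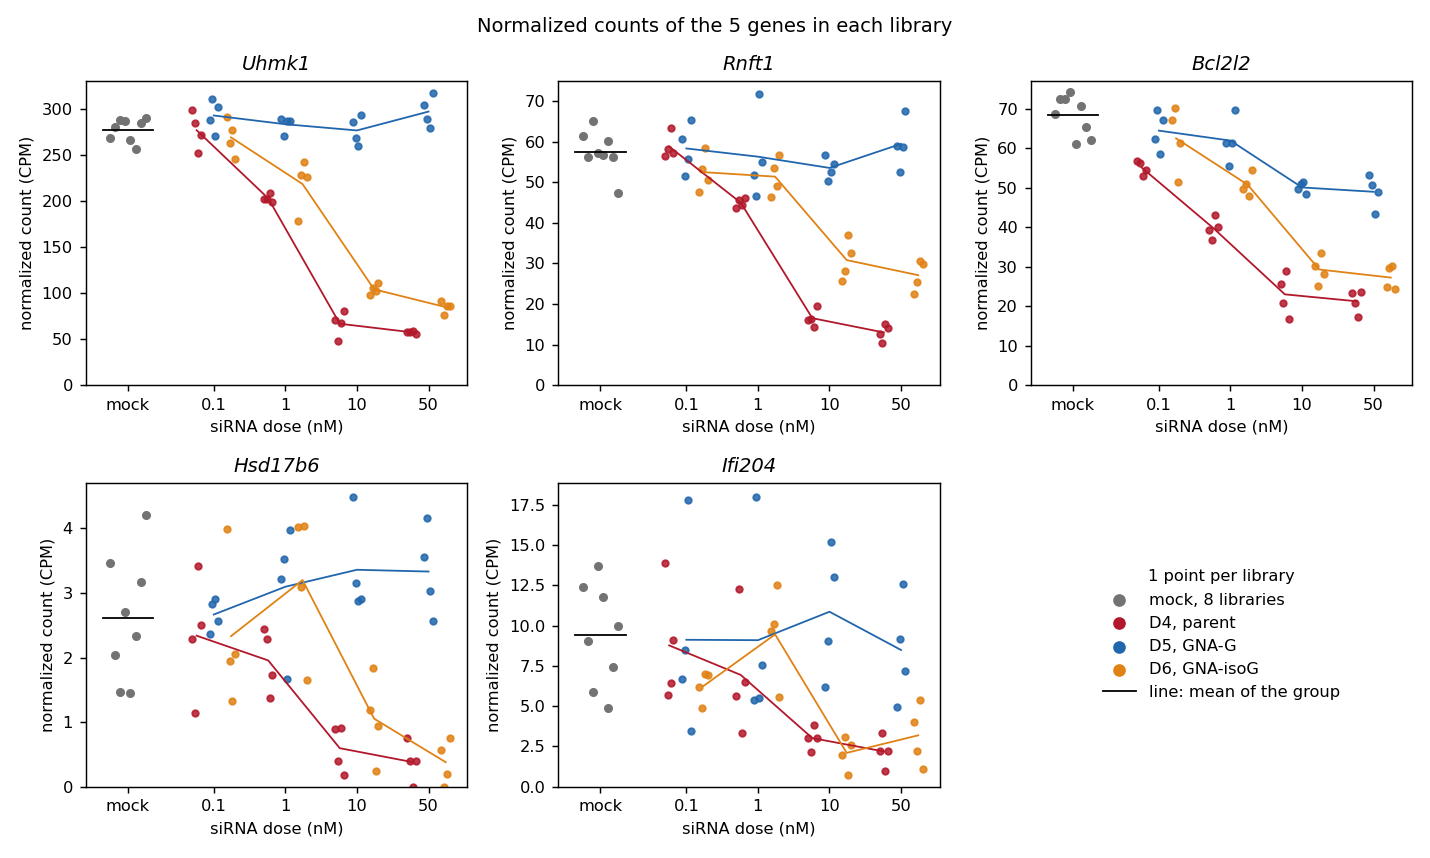
Each panel shows 1 gene, with the level in CPM on a linear axis for every mock, D4, D5 and D6 library by dose, so that each point is a library. At 50 nM the D4 and D6 libraries of the 5 genes lie below the D5 libraries, other than the Ifi204 libraries of D6 at 5.41 CPM and of D5 at 4.94 CPM.

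Uhmk1 encodes KIS, a serine/threonine kinase with a U2AF homology motif that phosphorylates the splicing factor SF1 and the cell cycle inhibitor p27Kip1. It was measured with the smallest relative spread of the 5 genes, at 257 to 290 CPM in the 8 mock libraries (mean 278 ± 12.2 SD, 932 to 1527 counts). With D4 the 4 libraries had 299, 285, 252 and 272 CPM at 0.1 nM and 202, 202, 209 and 199 CPM at 1 nM. They had 71.1, 48.0, 67.4 and 80.2 CPM at 10 nM and 57.3, 58.1, 58.7 and 55.7 CPM at 50 nM. From 1 nM on no D4 library overlapped the mock libraries. The decrease was a log2 fold change of −0.46 ± 0.05 (SE) at 1 nM (edgeR adjusted p = 2.05e-08) and −2.27 ± 0.06 at 50 nM (edgeR adjusted p = 4.46e-28), which left 20.7% of the mock mean.

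With D5 at 50 nM, Uhmk1 was at 304, 289, 279 and 317 CPM, within or above the mock range, with a log2 fold change of 0.10 and a 95% confidence interval from −0.01 to 0.20 (edgeR adjusted p = 0.317). With D6 it was at 178, 228, 242 and 226 CPM at 1 nM, at 98.3, 105, 102 and 111 CPM at 10 nM and at 91.1, 76.4, 85.5 and 86.0 CPM at 50 nM. All D6 libraries from 1 nM on lay below the mock libraries, and those at 50 nM lay above every D4 library of the same dose. Against mock, the log2 fold change of D6 was −0.35 ± 0.06 at 1 nM (edgeR adjusted p = 0.000333) and −1.71 ± 0.06 at 50 nM (edgeR adjusted p = 3.94e-22), which left 30.5% of the mock mean.

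Rnft1 encodes a RING-type E3 ubiquitin ligase of the endoplasmic reticulum (ER) membrane. In mock libraries it was at 47.3 to 65.1 CPM (mean 57.6 ± 5.15 SD). With D4 it was at 56.4, 58.2, 63.5 and 57.2 CPM at 0.1 nM and at 43.7, 45.6, 44.4 and 46.2 CPM at 1 nM. The latter lay just below the lowest mock library, with a log2 fold change of −0.36 ± 0.08 (edgeR adjusted p = 0.00486), and sequencing run 2 alone gave −0.33 with an edgeR adjusted p of 0.0974. With D4 at 10 nM the libraries lay between 14.3 and 19.4 CPM, and at 50 nM they had 12.5, 10.4, 15.0 and 14.0 CPM. At 50 nM this was 22.6% of the mock mean, a log2 fold change of −2.14 ± 0.10 (edgeR adjusted p = 2.07e-19).

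With D5 at 50 nM, Rnft1 was at 59.0, 52.5, 58.7 and 67.7 CPM, which overlapped the mock libraries, with a log2 fold change of 0.05 (95% confidence interval −0.12 to 0.21, edgeR adjusted p = 0.821). With D6 it was at 46.4, 53.5, 49.0 and 56.7 CPM at 1 nM, at 25.6, 28.1, 37.1 and 32.5 CPM at 10 nM and at 22.4, 25.4, 30.7 and 29.9 CPM at 50 nM. The D6 libraries at 10 and 50 nM were below all mock libraries and above all D4 libraries of the same dose. For D6 against mock, the log2 fold change was −0.90 ± 0.09 at 10 nM (edgeR adjusted p = 7.20e-10) and −1.08 ± 0.09 at 50 nM (edgeR adjusted p = 1.70e-11), which left 47.1% of the mock mean at 50 nM, the highest share among the 5 genes.

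Bcl2l2 encodes Bcl-w, a member of the BCL2 family that protects cells from apoptosis. The mock libraries had 61.2 to 74.2 CPM (mean 68.4 ± 4.97 SD). With D4 the libraries had 56.7, 56.3, 53.0 and 54.5 CPM at 0.1 nM, all 4 below the mock libraries. The log2 fold change at this dose was −0.31 ± 0.07, which did not pass the adjustment over all genes (edgeR adjusted p = 0.202). The fit with the replicate number as a block gave −0.40 with an edgeR adjusted p of 0.00663. Like every block fit against mock, it compares the siRNA with mock replicates 1 to 4 only. At 1 nM the D4 libraries had 39.3, 36.7, 43.1 and 40.1 CPM (log2 fold change −0.78 ± 0.08, edgeR adjusted p = 1.60e-09). At 10 nM they had 25.6, 20.8, 28.9 and 16.7 CPM, and at 50 nM 23.4, 20.9, 17.2 and 23.5 CPM, with a log2 fold change at 50 nM of −1.68 ± 0.09 (edgeR adjusted p = 3.74e-18). Among the 5 genes Bcl2l2 was thus the lowest relative to mock at 0.1 and 1 nM, at 80.6% and 58.2% of its mock mean, and the highest at 10 and 50 nM, at 33.7% and 31.1%; these orders were not tested.

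Bcl2l2 was also the member that D5 lowered. The D5 libraries had 62.4, 69.8, 58.5 and 67.3 CPM at 0.1 nM and 61.3, 55.5, 61.4 and 69.7 CPM at 1 nM, which overlapped the mock libraries. They had 49.7, 50.9, 51.4 and 48.4 CPM at 10 nM and 53.2, 50.6, 43.3 and 48.9 CPM at 50 nM, all below the lowest mock library. With D5 the log2 fold change was −0.46 ± 0.07 at 10 nM (edgeR adjusted p = 3.45e-05) and −0.48 ± 0.08 at 50 nM (95% confidence interval −0.64 to −0.32, edgeR adjusted p = 7.25e-05). Among the 329 tested genes with a mer8 match, Bcl2l2 had the seventh largest decrease with D5 at 50 nM. With D6 it was at 49.6, 51.0, 48.0 and 54.6 CPM at 1 nM, 30.3, 25.2, 33.5 and 28.2 CPM at 10 nM and 24.9, 29.7, 30.1 and 24.3 CPM at 50 nM. These lay below all mock libraries from 1 nM on (log2 fold change −0.43 at 1 nM, edgeR adjusted p = 0.000333, and −1.33 ± 0.08 at 50 nM, edgeR adjusted p = 9.11e-15).

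Hsd17b6 encodes an oxidoreductase of the short-chain dehydrogenase family that acts on hydroxysteroids and retinol. It was close to the detection limit, at 1.45 to 4.21 CPM in mock libraries (mean 2.61 ± 0.974 SD), which came from 7 to 22 counts. With D4 the libraries had 12, 6, 16 and 13 counts at 0.1 nM, 13, 10, 7 and 8 counts at 1 nM, 5, 2, 5 and 1 counts at 10 nM and 4, 2, 0 and 2 counts at 50 nM. The library at 0 allows a level of up to 0.585 CPM, if 3 counts are taken as the limit, which covers counting error only. Mock and D4 libraries overlapped at 0.1 and 1 nM and were apart at 10 and 50 nM. The log2 fold change was −0.42 ± 0.32 at 1 nM and −2.67 ± 0.49 at 50 nM (95% confidence interval −3.65 to −1.68). At 1 nM 2 of the 4 D4 libraries reached the minimum of the filter, and at 50 nM no D4 library did. The gene passed through the mock libraries at both doses, where it was higher. With all genes of at least 1 count kept, the log2 fold change was −0.42 ± 0.33 at 1 nM (edgeR adjusted p = 0.641). It was −2.67 ± 0.48 at 50 nM (edgeR adjusted p = 6.20e-07).

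With D5 at 50 nM, Hsd17b6 had 13, 19, 14 and 10 counts, or 2.57 to 4.16 CPM, with a log2 fold change against mock of 0.35 (95% confidence interval −0.25 to 0.95, edgeR adjusted p = 0.584). With D6 it had 20, 15, 20 and 8 counts at 1 nM, 6, 9, 1 and 5 counts at 10 nM and 3, 0, 1 and 4 counts at 50 nM, where the library at 0 allows up to 0.553 CPM. At 10 and 50 nM no D6 library reached the minimum of the filter, so the gene passed through the mock libraries there too. The log2 fold change of D6 was −1.24 ± 0.39 at 10 nM, and −1.24 ± 0.39 with all genes of at least 1 count kept (edgeR adjusted p = 0.0159). It was −0.99 without D6 10 nM replicate 3 and −1.17 without replicate 4, neither of which passed in the main fit (edgeR adjusted p of 0.0716 and 0.0522). At 50 nM it was −2.70 ± 0.49, and −2.70 ± 0.48 with all genes of at least 1 count kept (edgeR adjusted p = 4.14e-07).

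Ifi204 encodes an interferon-inducible protein of the PYHIN (p200) family that takes part in the sensing of foreign DNA and is known mostly from macrophages. It varied widely between libraries of the same group, at 4.88 to 13.7 CPM in mock (mean 9.39 ± 3.16 SD, 25 to 71 counts). With D4 it was at 13.9, 5.69, 6.41 and 9.08 CPM at 0.1 nM and at 5.62, 12.3, 3.33 and 6.50 CPM at 1 nM, and both groups overlapped mock. At 10 nM the D4 libraries had 3.03, 2.16, 3.85 and 3.04 CPM, and at 50 nM 2.25, 3.35, 0.975 and 2.19 CPM, all below the mock libraries. The log2 fold change was −0.46 ± 0.34 at 1 nM (edgeR adjusted p = 0.643) and −2.07 ± 0.30 at 50 nM. At 50 nM 3 of the 4 D4 libraries reached the minimum of the filter, and the gene passed through the mock libraries.

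With D5 at 50 nM, Ifi204 was at 4.94, 9.19, 12.6 and 7.21 CPM, inside the mock range, with a log2 fold change of −0.11 and a 95% confidence interval from −0.67 to 0.45 (edgeR adjusted p = 0.877). With D6 it was at 9.64, 10.1, 12.5 and 5.58 CPM at 1 nM, at 1.98, 3.07, 0.756 and 2.61 CPM at 10 nM and at 4.03, 2.21, 5.41 and 1.12 CPM at 50 nM. The 10 nM libraries were apart from mock, while 1 of the 4 libraries at 50 nM lay above the lowest mock library. For D6 the log2 fold change was −2.09 ± 0.31 at 10 nM and −1.55 ± 0.35 at 50 nM. With the replicate number as a block, the value at 50 nM did not pass (edgeR adjusted p = 0.0512). The minimum of the filter was reached by 2 of the 4 D6 libraries at 10 nM and by 3 at 50 nM, and the gene passed through the mock libraries. In the fit that kept all genes of at least 1 count, Ifi204 had log2 fold changes of −2.08 ± 0.24 for D4 at 50 nM (edgeR adjusted p = 1.44e-16), −2.09 ± 0.25 for D6 at 10 nM (edgeR adjusted p = 2.04e-15) and −1.55 ± 0.22 for D6 at 50 nM (edgeR adjusted p = 4.14e-11). The standard errors of that fit were smaller than those of the main fit at nearly the same fold changes. Its p-values may therefore understate the spread of Ifi204 between libraries.

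**Figure D3:**
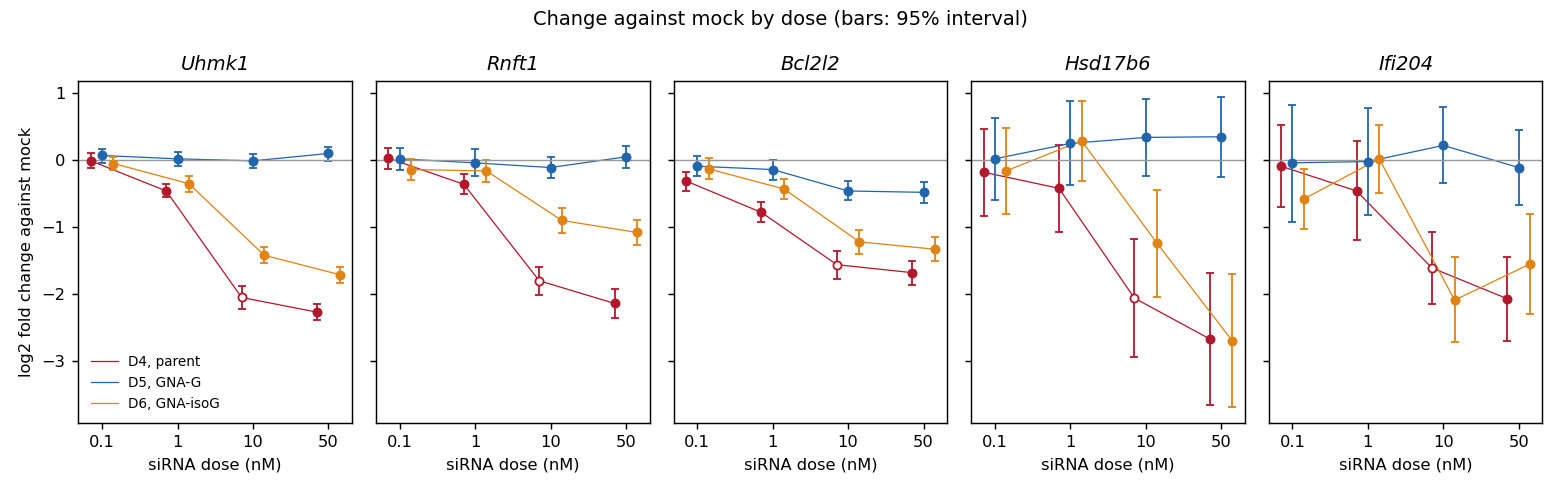
Each panel shows 1 gene, with the doses in nM at equal distances and the log2 fold change against mock from edgeR on the vertical axis, for D4, D5 and D6. Bars are 95% confidence intervals and the open circle marks D4 at 10 nM, which chose the genes. At 50 nM the D4 values lie between −2.67 and −1.68, the D6 values between −2.70 and −1.08 and the D5 values between −0.48 and 0.35.

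The steps of the dose curve were compared without the 10 nM libraries of D4. Between 0.1 and 1 nM, D4 lowered 3 of the 5 genes, beside 0.314% of all genes tested. The log2 fold change was −0.44 for Uhmk1 (edgeR adjusted p = 4.49e-05), −0.38 for Rnft1 (edgeR adjusted p = 0.0251) and −0.46 for Bcl2l2 (edgeR adjusted p = 0.00504). The Rnft1 step had an edgeR adjusted p of 0.0537 without D4 0.1 nM replicate 1, 0.139 without D4 0.1 nM replicate 3, and 0.139, 0.0528, 0.102 and 0.0560 without replicates 1, 2, 3 and 4 of D4 at 1 nM. It also failed in each run alone (edgeR adjusted p of 0.239 and 0.147) and in the fit of all libraries (edgeR adjusted p = 0.0580), and the Bcl2l2 step failed in run 2 alone (edgeR adjusted p = 0.211).

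Between 1 and 50 nM, D4 lowered Uhmk1, Rnft1 and Bcl2l2, beside 11.8% of all genes. Uhmk1 fell by 1.82, Rnft1 by 1.78 and Bcl2l2 by 0.90 on the log2 scale. Ifi204 fell by 1.62, with the filter passed through the 1 nM libraries, where it was higher. Hsd17b6 had too few counts for the main test. Its log2 fold change in the fit with all genes of at least 1 count was −2.26 ± 0.59 (edgeR adjusted p = 0.00255).

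With D6, none of the 5 genes was called between 0.1 and 1 nM, beside 0.288% of all genes. At this step 3 had an unadjusted p under 0.05, DESeq2 called 0, and 1 of the 3, Ifi204, was higher at 1 nM. Uhmk1 came closest (log2 fold change −0.30, edgeR adjusted p = 0.0730). It passed with all libraries in the fit (edgeR adjusted p = 0.0192), with all genes of at least 1 count (edgeR adjusted p = 0.00117), with the replicate number as a block (edgeR adjusted p = 0.0433), without D6 0.1 nM replicate 4 (edgeR adjusted p = 0.0335) and without D6 1 nM replicate 3 (edgeR adjusted p = 0.0419).

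Between 1 and 10 nM, D6 lowered Uhmk1, Rnft1 and Bcl2l2, beside 7.18% of all genes, with log2 fold changes of −1.06, −0.74 and −0.79. Ifi204, which passed the filter through the 1 nM libraries, had −2.11 ± 0.30. Hsd17b6, kept only without the filter, had −1.53 ± 0.42 (edgeR adjusted p = 0.00835). Between 10 and 50 nM none of 4 was called, beside 0% of all genes, while 1 had an unadjusted p under 0.05 and DESeq2 called 0. This was Uhmk1, with a log2 fold change of −0.29 (95% confidence interval −0.44 to −0.14, edgeR adjusted p = 0.347). For Hsd17b6 without the filter the value was −1.44 ± 0.72 (edgeR adjusted p = 0.740).

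The 3 siRNAs with the Ttr guide were compared with each other at the same dose, in 10 comparisons without the mock libraries, with p-values adjusted over all genes within each comparison. Between D4 and D5, whose stated difference is GNA-G in place of the parent nucleotide at guide position 6, none of the 5 genes was called at 0.1 nM, Uhmk1 and Bcl2l2 were lower with D4 at 1 nM, and Uhmk1, Rnft1 and Bcl2l2 were lower at 50 nM. Over all genes, 0%, 0.289% and 13.8% were lower at these doses, and 10.5% at 10 nM. At 0.1 nM, 1 member had an unadjusted p under 0.05 and DESeq2 called 0. At 1 nM the calls were Uhmk1 (log2 fold change −0.48 ± 0.05, edgeR adjusted p = 3.21e-05) and Bcl2l2 (−0.64 ± 0.09, edgeR adjusted p = 0.000464). Rnft1 had −0.32 ± 0.11 (edgeR adjusted p = 0.458), and −0.40 without D5 1 nM replicate 2 (edgeR adjusted p = 0.0400).

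At 50 nM, D4 gave a log2 fold change against D5 of −2.37 ± 0.07 for Uhmk1 (edgeR adjusted p = 1.38e-19) and of −2.19 ± 0.12 for Rnft1 (edgeR adjusted p = 1.80e-13). For Bcl2l2, the gene that D5 also lowered, the log2 fold change was −1.20 ± 0.12 (edgeR adjusted p = 6.88e-09). Ifi204 had −1.96 ± 0.32 and Hsd17b6 −3.02 ± 0.51, and both passed the filter on low counts through the D5 libraries, where they were higher. With all genes of at least 1 count kept, Hsd17b6 had −3.02 ± 0.55 (edgeR adjusted p = 1.11e-06).

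D6 and D5 differ by the GNA nucleotide at guide position 6, isoG against G, and none of their libraries had chosen the genes. None of the 5 genes was called at 0.1 nM, Uhmk1 was lower with D6 at 1 nM, and Uhmk1, Rnft1 and Bcl2l2 were lower at 10 and at 50 nM. Over all genes, 0%, 0.154%, 10.3% and 12.2% were lower with D6 at the 4 doses. At 0.1 nM no member had an unadjusted p under 0.05 and DESeq2 called 0. The call at 1 nM was Uhmk1 (log2 fold change −0.37 ± 0.08, edgeR adjusted p = 0.0490), which lay at the threshold. It was lost without D5 1 nM replicate 1 (edgeR adjusted p = 0.243), replicate 3 (0.152) or replicate 4 (0.173), without D6 1 nM replicate 1 (0.0689), replicate 2 (0.191) or replicate 4 (0.152), in run 1 alone (0.0591) and with the replicate number as a block (0.0559).

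At 10 nM the log2 fold change of D6 against D5 was −1.40 ± 0.06 for Uhmk1 (edgeR adjusted p = 6.83e-18), −0.80 ± 0.10 for Rnft1 (edgeR adjusted p = 6.04e-07) and −0.77 ± 0.10 for Bcl2l2 (edgeR adjusted p = 6.54e-07). At 50 nM it was −1.81 ± 0.07 for Uhmk1, −1.13 ± 0.11 for Rnft1 and −0.84 ± 0.11 for Bcl2l2. Ifi204 had −2.31 ± 0.31 at 10 nM and −1.43 ± 0.36 at 50 nM, and Hsd17b6 had −1.59 ± 0.41 and −3.04 ± 0.51. Both passed the filter through the D5 libraries, where they were higher. With all genes of at least 1 count kept, Hsd17b6 had −1.60 ± 0.42 at 10 nM (edgeR adjusted p = 0.00309) and −3.03 ± 0.54 at 50 nM (edgeR adjusted p = 8.36e-07). For Uhmk1, Rnft1 and Bcl2l2 all 4 D6 libraries lay below all 4 D5 libraries at 10 nM. The share of all genes with such a separation was not computed.

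D4 and D6 differed for 2 of the 4 genes tested at 50 nM. None of the 5 genes was called at 0.1 or 1 nM, where 0% and 0.0271% of all genes were lower with D4, and at 50 nM the share over all genes was 2.21%. At 0.1 nM 2 members and at 1 nM 3 members had an unadjusted p under 0.05, and DESeq2 called 0 at both doses. At 50 nM Rnft1 was lower with D4 by a log2 fold change of −1.05 ± 0.14 (edgeR adjusted p = 1.11e-05) and Uhmk1 by −0.56 ± 0.08 (edgeR adjusted p = 1.63e-05). Bcl2l2 had −0.35 (95% confidence interval −0.61 to −0.10, edgeR adjusted p = 0.123) and passed with all libraries in the fit (edgeR adjusted p = 0.0438). Ifi204 had −0.52 with an interval from −1.37 to 0.33 (edgeR adjusted p = 0.603). Hsd17b6 was at 0.385 CPM with D4 and 0.381 CPM with D6, too few counts for the main test, and without the filter its log2 fold change was 0.03 ± 0.89. At 10 nM, given without a test, Uhmk1 was at 24.0% of its mock mean with D4 and 37.4% with D6 and Rnft1 at 28.7% and 53.5%, beside 1.22% of all genes lower with D4. That share rests on 136 genes, and the count was 459 with all libraries in one fit, 279 with all genes of at least 1 count and 225 with the replicate number as a block.

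**Figure D4:**
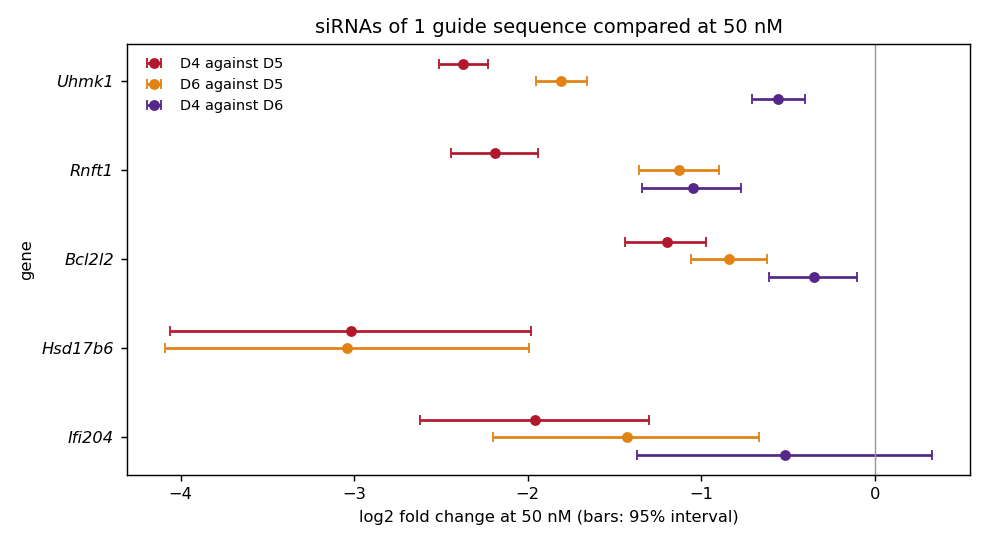
Points are log2 fold changes at 50 nM from edgeR with 95% confidence intervals, for D4 against D5, D6 against D5 and D4 against D6 in each gene, without mock libraries. D4 against D6 lies at −1.05 for Rnft1 and at −0.35 for Bcl2l2, and Hsd17b6 has no value there because it had too few counts.

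The Hao1 siRNAs show the members without the D4 seed. D4 was first set against D1, the other parent, at matched doses. D4 was lower for Uhmk1, Rnft1 and Bcl2l2 at 1 nM, beside 1.57% of all genes, and again at 50 nM, beside 17.6% of all genes. At 1 nM the log2 fold change was −0.56 for Uhmk1, −0.36 for Rnft1 (edgeR adjusted p = 0.00446, and 0.0625 in run 2 alone) and −0.79 for Bcl2l2. At 50 nM it was −2.54 for Uhmk1, −2.21 for Rnft1 and −1.88 for Bcl2l2. Ifi204 had −2.31 and Hsd17b6 −3.25, and both passed the filter through the D1 libraries, where they were higher. With all genes of at least 1 count kept, Hsd17b6 had −3.24 ± 0.51 (edgeR adjusted p = 4.43e-09).

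Against mock, 6 of the 60 values of D1, D2 and D3 were called, 5 of them higher and 1 lower than mock. With D1 none of the 5 genes was called at 0.1 or 1 nM, beside 0.320% and 0.632% of all genes called in either direction, and 2 were called at 10 nM and 2 at 50 nM, beside 19.0% and 25.9%. With D2 none was called at any dose, beside 0.00885%, 0.00886%, 2.26% and 6.04% of all genes. With D3 none was called at 0.1, 1 or 10 nM, beside 0.00886%, 0.407% and 17.4%, and 2 at 50 nM, beside 28.3%. The number of members with an unadjusted p under 0.05 was 2 and 1 for D1 at 0.1 and 1 nM, 1 for D2 at 10 nM and 0 for D2 at the other doses, and 1, 0 and 1 for D3 at 0.1, 1 and 10 nM. DESeq2 called 0 in each of these groups.

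Uhmk1 was raised by D1, from a mock mean of 278 CPM to 330 ± 22.2 CPM (SD) at 10 nM (log2 fold change 0.23, edgeR adjusted p = 0.00186, and 0.0773 with the replicate number as a block) and 332 ± 12.1 CPM at 50 nM (log2 fold change 0.26, edgeR adjusted p = 0.000117). All 4 D1 libraries lay above the mock range at both doses. Bcl2l2 was raised by D1 at 50 nM to 78.0 CPM, by 0.19 on the log2 scale (edgeR adjusted p = 0.0344). That call was lost without D1 50 nM replicate 1 (edgeR adjusted p = 0.137), 2 (0.0739) or 4 (0.0533), without mock replicate 5 (0.0675), 7 (0.0616) or 8 (0.0648), in either run alone (0.0686 and 0.115), with all genes of at least 1 count (0.0933) and with the replicate number as a block (0.384).

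Hsd17b6 was raised by D1 at 10 nM to 5.04 CPM (log2 fold change 0.93 ± 0.28, edgeR adjusted p = 0.0183), but not without D1 10 nM replicate 2 (0.71, edgeR adjusted p = 0.134), without replicate 4 (0.81, edgeR adjusted p = 0.0677) or in run 2 alone (edgeR adjusted p = 0.213). D3 at 50 nM raised it to 4.40 CPM (log2 fold change 0.73 ± 0.27, edgeR adjusted p = 0.0395). This call failed without D3 50 nM replicate 1 (edgeR adjusted p = 0.149), 3 (0.0653) or 4 (0.150), without mock replicate 2 (0.0592), 3 (0.0777), 4 (0.0520), 5 (0.0749) or 6 (0.0596), in run 2 alone (0.0547), with all genes of at least 1 count (0.0589) and with DESeq2 (adjusted p = 0.0783).

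Rnft1 was the member that a Hao1 siRNA lowered, with D3 at 50 nM at 47.8 ± 5.44 CPM (log2 fold change −0.27 ± 0.08, edgeR adjusted p = 0.0117), 3 of 4 libraries being below the mock range. It was not called without D3 50 nM replicate 4 (−0.22, edgeR adjusted p = 0.0635) or in run 2 alone (edgeR adjusted p = 0.206). At 10 nM the value was −0.24 (edgeR adjusted p = 0.0576), which passed without D3 10 nM replicate 3 (0.00578), without mock replicate 8 (0.0191), with all genes of at least 1 count (0.0417), with all libraries in the fit (0.0388) and with the replicate number as a block (0.0210).

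Ifi204 was not called with any Hao1 siRNA. Its log2 fold change was −0.91 with D1 at 0.1 nM (edgeR adjusted p = 0.171), and it passed there without mock replicate 6 (0.0250), with all genes of at least 1 count (0.00413) and with the replicate number as a block (0.00773). With D3 it was −0.51 at 10 nM (edgeR adjusted p = 0.413), and 0.0116 without D3 10 nM replicate 3. With D3 at 50 nM it was −0.62 (edgeR adjusted p = 0.143), and it passed without D3 50 nM replicate 4 (0.00760), without mock replicate 6 (0.0343), with all genes of at least 1 count (0.00913) and with the replicate number as a block (0.00792).

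The 5 genes were then placed among all genes with a mer8 match. With D4 at 50 nM, 139 of 333 tested mer8 genes were lower (41.7%, against 17.9% of all genes), with a median log2 fold change of −0.18 against 0.01. With D6 at 50 nM 118 of 331 were lower (35.6% against 16.5%) and with D5 at 50 nM 9 of 329 (2.74% against 1.97%). At 10 nM 98 of 331 were lower with D6 (29.6% against 13.9%). With D5 at 10 nM 22 of 329 were lower (6.69% against 3.54%), with a median of −0.04 against −0.01. Ttr, the intended target, has a mer8 match too and is among the mer8 genes compared with mock. In the direct comparison of D6 with D5 at 50 nM, 89 of 326 mer8 genes were lower with D6 (27.3% against 12.2%), with a median of −0.08. By size of that decrease, Uhmk1 ranked 2, Rnft1 10 and Bcl2l2 20 of 326. Ifi204 (5) and Hsd17b6 (1) were in this ranking through the D5 libraries, and the place of Hsd17b6 is a fold over 0 to 4 counts with D6. Between D4 and D6 at 50 nM 26 of 327 were lower with D4 (7.95% against 2.21%), and Rnft1 ranked 1, Uhmk1 11, Ifi204 15 and Bcl2l2 31 of 327. Against mock at 50 nM, the ranks with D4 of 333 and with D6 of 331 were 4 and 16 for Rnft1, 3 and 3 for Uhmk1, 9 and 7 for Bcl2l2, 5 and 5 for Ifi204 and 2 and 2 for Hsd17b6, the last with 0 to 4 counts under both siRNAs.

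**Figure D5:**
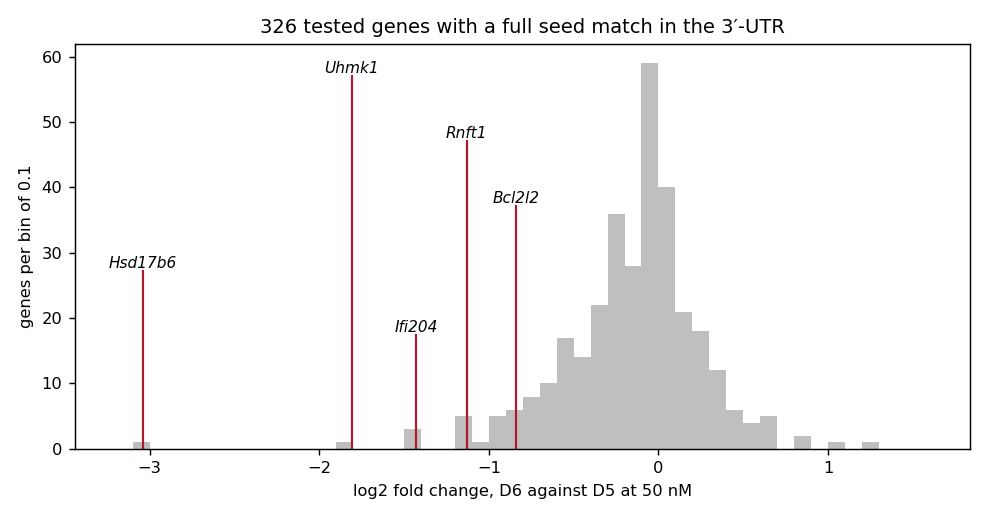
The distribution of the log2 fold change of D6 against D5 at 50 nM is shown for the 326 tested genes with a mer8 match, with lines that mark the 5 genes. The genes lie between −3.04 (Hsd17b6) and −0.84 (Bcl2l2), and the median of mer8 genes is −0.08.

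The genes whose mean log2 CPM followed each member most closely over the 25 groups were found by Pearson's r among 11973 genes with a mean of at least 1 CPM. These groups include those that chose the members, and the values are a description. Uhmk1 was followed by Arpc5, Csnk1a1 and Jcad (r = 0.99 each), Rnft1 by Rab12 (0.99), Cct2 (0.98) and Mid2 (0.98), and Bcl2l2 by Tgfbr1 (0.98), Arpc5 (0.98) and Kpna6 (0.97). Hsd17b6 was followed by Ces1d (0.97), M6pr (0.96) and Alg11 (0.96), and Ifi204 by Slc25a45 (0.93), Tlr4 (0.92) and Sec24d (0.92). Of these, Arpc5 and Csnk1a1 had a mer8 match, Jcad, Tgfbr1 and Ces1d a mer7m8 match and Mid2, Alg11 and Sec24d a mer7A1 match. The other 6 had none of these matches. With Spearman's rho, Arpc5 for Bcl2l2 and Ces1d for Hsd17b6 stayed among the 3 nearest, and all others were replaced.

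The relatives of each member were examined at 50 nM against mock, where 17.9% of all genes were lower and 16.7% higher with D4, 1.97% and 4.58% with D5 and 16.5% and 15.0% with D6. Of 13 other tested genes of the BCL2 family, 1 was lower with D4 (Bid, a pro-apoptotic protein, −0.37 on the log2 scale) and 5 were higher, among them the anti-apoptotic Bcl2 (0.91) and the pro-apoptotic Bak1 (0.17), Bcl2l11 (0.50) and Bbc3 (0.82). The other 7 did not pass, and the median was 0.03 against 0.01 for all genes. With D6 2 were lower and 6 higher, and with D5 0 of 12 were lower and 1 was higher. Of 24 other ER ubiquitin ligases and factors of ER-associated degradation, beside which Rnft1 stands, 6 were lower and 8 higher with D4, beside 17.9% and 16.7% of all genes (median 0.09). The lower ones included the ubiquitin-conjugating enzymes Ube2j1 (−0.48) and Ube2g2 (−0.30) and the ligase Rnf185 (−0.21), and the higher ones Derl3 (0.54), Rnf145 (0.42) and Edem2 (0.40).

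Of 10 tested substrates of UHMK1 and proteins with a U2AF homology motif or their partners, 1 was lower with D4 at 50 nM (Sf3b1, a core splicing factor, −0.26; 17.9% of all genes) and 2 were higher (Stmn1, the tubulin-binding stathmin, 0.46, and Pam, a peptide-amidating enzyme, 0.25), with a median of 0.08. Of 15 other hydroxysteroid and retinol dehydrogenases, 4 were lower and 6 higher, beside 17.9% and 16.7% of all genes (median 0.21). The lower ones were Hsd3b2 (−3.39), Hsd17b7 (−0.26), Hsd17b12 (−0.23) and Hsd17b4 (−0.17), and the higher ones included Hsd17b13, a lipid droplet protein (1.14), the steroid reductase Srd5a1 (0.63) and the retinol dehydrogenase Rdh10 (0.56). With D5 0 of the 15 were lower and 2 higher, beside 1.97% and 4.58% of all genes, and with D6 2 were lower and 3 higher, beside 16.5% and 15.0%.

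For Ifi204, 13 genes of its family were in the files and most were near 0. Ifi202b was the other member tested with D4 at 50 nM. It had no seed match, was at 41.0 to 65.5 CPM in mock and 33.3 to 43.9 CPM with D4, and was called lower (log2 fold change −0.47). Ifi203 and Ifi207, which have a mer8 match too, were at means of 0.333 and 1.67 CPM in mock libraries and of 0.343 and 1.12 CPM with D4 at 50 nM, too low for the test. Of 30 tested genes of the interferon response, 9 were lower and 1 higher with D4 at 50 nM, beside 17.9% and 16.7% of all genes (median −0.21 against 0.01). The lower ones included Ifi44 (−0.88), Isg15 (−0.87), Gbp3 (−0.67) and Oas1a (−0.66), and Rsad2 was higher (1.19). With D6 3 were lower and 1 higher, beside 16.5% and 15.0% of all genes. With D5 0 of 30 passed in either direction by edgeR, beside 1.97% lower and 4.58% higher over all genes.

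Macrophage markers were near 0 in these cells. Of 13 genes on the Kupffer cell and macrophage list, 9 had 0 counts in all mock libraries, among them Clec4f, Adgre1, Vsig4 and Ptprc. The summed level was 16.2 to 23.0 CPM in mock and came mostly from Cd68 (mean 19.6 CPM). It was 31.1 to 43.4 CPM with D4 at 50 nM, above mock, where Ifi204 was lower, 17.5 to 33.5 CPM with D5 and 21.5 to 28.2 CPM with D6. The sinusoidal endothelial list, with Clec4g and Kdr at 0 counts in all mock libraries, summed to 6.34 to 12.7 CPM in mock, 2.79 to 8.24 CPM with D4, 4.39 to 13.4 CPM with D5 and 2.99 to 5.01 CPM with D6 at 50 nM. The stellate cell list, with Des and Pdgfrb at 0, summed to 14.7 to 26.8 CPM in mock and to 6.95 to 23.2 CPM over the 3 siRNAs at 50 nM. The lymphocyte list, with 4 of 6 genes at 0 in all mock libraries, lay between 0.584 and 5.48 CPM over mock and the 3 siRNAs at 50 nM. The cholangiocyte list rose from 150 to 177 CPM in mock to 193 to 246 CPM with D4, 186 to 219 CPM with D5 and 215 to 235 CPM with D6 at 50 nM. With the Hao1 siRNAs at 50 nM it was at 193 to 237 CPM with D1, 164 to 180 CPM with D2 and 200 to 222 CPM with D3. Most of the sum was Krt19, at a mean of 113 CPM in mock and 155 CPM with D4 at 50 nM, while Spp1 was at 17.9 and 13.7 CPM. Epcam was at a mean of 1.69 CPM in mock and at 16.3 CPM with D4, 3.89 CPM with D5 and 11.3 CPM with D6 at 50 nM. The part of these cells in the levels of the 5 genes was not tested.

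Of 13 tested components of RNA interference 2 were lower with D4 at 50 nM, beside 17.9% of all genes: Ago3 (−0.46), which has a mer7A1 match, and Ago2 (−0.33), the slicing Argonaute, which has a mer7m8 match. Tnrc6a (0.47), Dicer1 (0.38) and Ago1 (0.32) were higher, beside 16.7% of all genes, and the median was 0.06. With D5 0 were lower and 4 higher, beside 1.97% and 4.58% of all genes. With D6 1 was lower and 4 higher, beside 16.5% and 15.0%.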

How the data were processed

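Hepatocyte RNA was sequenced after transfection with each siRNA (4 libraries a dose) or without siRNA (8 libraries). The authors passed reads through fastq-mcf, used STAR for alignment to GRCm39 and deposited unnormalized counts, in which featureCounts (2.0.2, per the submitters' processing notes) had assigned each uniquely placed read to a gene, in 2 sequencing runs per library. Gene symbols were taken from the symbol column of the deposited DESeq2 (1.32.0) tables; their other columns hold the authors' fold changes and p-values and were not used.

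Runs were summed (chi-square per degree of freedom between runs 0.99 to 1.07, between replicates 1.67 or more). The 92 ERCC spike-ins, 0.425% to 1.43% of counts, were left out, and no library was. The test was edgeR 4.0.16 under R 4.3.3 (TMM, filterByExpr, robust glmQLFit, glmQLFTest) with the 2 groups compared in each fit and Benjamini-Hochberg adjustment over all genes tested, and a gene was called at an adjusted p under 0.05. The log2 CPM had a prior count of 2. Confidence intervals of 95% used edgeR's degrees of freedom. It was tested on simulated data. DESeq2 1.42.0 with betaPrior served as an alternative, beside RLE size factors, a filter of at least 1 count, single runs, a fit of all groups together, a block for the replicate number and the omission of each library in turn. No siRNA library has the replicate numbers 5 to 8, so these mock libraries add nothing to the fold change of a block fit. The mock libraries left there include replicates 1 and 2, with 3452580 and 3409963 counts. Seed matches were searched in the longest annotated 3′-UTR of each gene (GENCODE, GRCm39), and all 5 genes also had the match in the canonical transcript. Python 3.11.15 with pandas 2.3.3, numpy 2.4.6 and scipy 1.17.1 was used.

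The 5 genes, the gene lists, the markers and the other genes named were chosen with earlier results of these data known. The genes named besides the 5 are the targets, the 3 genes next in the ranking, the 3 nearest patterns of each member and, from each list, up to 4 genes called in each direction with D4 at 50 nM by size, and the annotated overlapping genes and cell type markers. Ifi203 and Ifi207 were named after their values were seen.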

Additional observations from a re-analysis of the deposited data

Results flagged for a closer look

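In 3 of 125 groups of 4 to 8 libraries of the 5 genes, the lowest or the highest library stood apart by its gap to the nearest library over the range of the group (Dixon's ratio). Chance flags about 1 in 20 groups. For Ifi204 with D2 at 1 nM, replicate 2 was at 24.6 CPM and the others at 6.46 to 8.60 CPM (ratio 0.882). For Bcl2l2 with D2 at 50 nM, replicate 3 was at 57.0 CPM and the others at 64.4 to 64.7 CPM (ratio 0.959). For Uhmk1 with D5 at 1 nM, replicate 2 was at 271 CPM and the others at 287 to 289 CPM (ratio 0.873), a small difference in a tight group.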

How the results depend on the processing

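Of 3299 recomputed fold changes of the 5 genes, 3228 kept their direction and side of the threshold, 50 were lost, 21 passed anew and 0 reversed. With sequencing run 2 alone, the members called with D1 to D3 fell from 6 to 2 and those called in the dose steps of D4 from 7 to 4. Leaving out 1 library gave 3 to 7 calls for D1 to D3, 8 for D4 against mock (without 10 nM), 2 for D5 and 11 to 12 for D6 against mock, 7 to 8 for D4 against D5, 10 to 11 for D6 against D5, 2 for D4 against D6, 6 to 7 and 4 to 6 for the dose steps of D4 and D6, and 8 for D4 against D1. The cause was not tested. With the replicate block the counts were 7, 9, 2, 11, 7, 10, 2, 7, 5 and 8 in the same order. All these counts of members called, with run 2, an omitted library or the block, include Hsd17b6 and Ifi204 where they passed the filter through the higher group. They are therefore not comparable with the calls of D4 to D6 given above, which left these cases out. The shares over all genes are those given with each comparison above. The labels do not say what the number marks. In block fits against mock the fold change rests on mock replicates 1 to 4 alone. The block and the smaller number of mock libraries cannot be told apart in these fits. Libraries with the same number had a mean correlation of deviations of 0.04 (−0.42 to 0.58), against −0.01 for different numbers, and 50 of 96 correlated best with their own number, where equal shares over the 4 numbers give 24, which is a hint from the data and not from the design. Over all genes, 57 of 301 counts of lower genes moved by over 1.5 times, 0 of them with RLE size factors. With the replicate block, D4 against mock gave 19 in place of 1 at 0.1 nM and 198 in place of 122 at 1 nM, D4 against D1 at 1 nM 270 in place of 174, D4 against D6 6 in place of 3 at 1 nM and 225 in place of 136 at 10 nM, and D6 at 50 against 10 nM 13 in place of 0. Against mock at 0.1 nM the block gave 11 in place of 0 for D5, 76 in place of 5 for D6, 59 in place of 35 for D1, 3 in place of 1 for D2 and 17 in place of 1 for D3, and at 1 nM 81 in place of 49 for D1 and 76 in place of 24 for D3. With all genes of at least 1 count, the counts against mock at 0.1 nM were 13 for D5, 35 for D6, 58 for D1, 7 for D2 and 14 for D3, and at 1 nM 90 for D1 and 48 for D3. They were 75 in place of 32 for D4 against D5 at 1 nM, 38 in place of 17 for D6 against D5 at 1 nM, 10 and 279 for D4 against D6 at 1 and 10 nM, 53 in place of 32 for D6 at 1 against 0.1 nM and 16 for D6 at 50 against 10 nM. With all libraries in one fit they were 1 for D5, 2 for D6 and 1 for D1 at 0.1 nM, 94 in place of 145 for D6 at 1 nM, 49 for D4 against D5 at 1 nM, 459 for D4 against D6 at 10 nM, 16 and 5 for D6 at 1 against 0.1 nM and at 50 against 10 nM, and 70 for D4 against D1 at 1 nM. With run 1 alone they were 251 in place of 399 for D5 at 10 nM, 95 for D6 at 1 nM, 2 for D3 at 0.1 nM, 11 for D6 against D5 at 1 nM, 157 in place of 247 for D4 against D6 at 50 nM, 15 in place of 35 for D4 at 1 against 0.1 nM, 12 for D6 at 1 against 0.1 nM and 101 for D4 against D1 at 1 nM. With run 2 alone they were 1 for D5 and 2 for D2 at 0.1 nM, 259 for D5 at 10 nM, 92 for D6 at 1 nM, 29 for D1 and 12 for D3 at 1 nM, 74 in place of 123 for D2 at 10 nM, 20 and 10 for D4 and D6 at 1 against 0.1 nM and 106 for D4 against D1 at 1 nM. DESeq2 gave 1 for D5 and 10 for D6 at 0.1 nM, 44 for D3 at 1 nM and 5 for D6 at 50 against 10 nM. Depth limited Hsd17b6, with 7 to 22 counts in mock libraries, and Ifi204, with 25 to 71.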
